A study of Danio rerio with 11 samples.

Results

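The genes msmo1 and hmgcs1 encode enzymes of cholesterol synthesis, and their levels were followed array by array in livers of zebrafish larvae. They are 2 of 7792 named genes on the array, taken by gene symbol, and each is read by 1 probe set. All livers were dissected at 4 days after fertilisation from larvae whose yolk had been injected at 2 days. The control group held 4 arrays of ahcy +/+ larvae given vehicle, the azacytidine group 4 arrays of ahcy +/+ larvae given 1 mM azacytidine, and the mutant group 3 arrays of ahcy -/- larvae given vehicle. Azacytidine is a cytidine analogue that traps DNA methyltransferases once it is built into DNA, and ahcy encodes the hydrolase that clears S-adenosylhomocysteine, the by-product of methylation. The study compared the 3 groups to find what a block of methylation does to gene expression in the liver, whether a drug or a mutation brings it about. The labels state neither the nature of the ahcy mutation, which all cells of a mutant larva carry, nor how many larvae gave 1 sample, so p-values speak of the spread among these samples alone, and that spread may be technical. Both genes were chosen by their log2 levels on these arrays, with the results of all 3 comparisons known, so their own values are given as a description, with no test.

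Cholesterol is built from acetyl-CoA by a long chain of enzymes, and the liver is a main site of this synthesis. The cytosolic HMG-CoA synthase encoded by hmgcs1 joins acetoacetyl-CoA with acetyl-CoA to make HMG-CoA, the substrate of HMG-CoA reductase, and so stands near the entry of the mevalonate pathway. The sterol methyl oxidase encoded by msmo1 acts much later, where it begins removal of some of the methyl groups that lanosterol-derived sterols carry and cholesterol lacks. In mammals, genes at both ends of the pathway are switched on together by SREBP transcription factors when sterols in the endoplasmic reticulum run low.

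Levels are deposited log2 expression levels, on which a step of 1 is a doubling, and levels of different genes are not comparable with each other. The array medians lay between 5.89 and 6.17. Of 24 hepatocyte markers sought, 19 were measured, and 18 of these lay above the 10th percentile of every array, which was used as a mark of dim signal, while hpxa lay below it on controls 1, 2 and 4. The hepatocyte gene fabp10a, which encodes the liver fatty acid binding protein, ranged from 8.6 to 13.59. Markers of other tissues were uneven among the controls. For 17 neural markers the mean level reached 8.45 on control 4 and 7.44 on control 8, whereas controls 1 and 2 stood at 6.17 and 5.63. For 12 exocrine pancreas markers it reached 10.5 on control 2, and the next highest array was control 8 at 7.78.

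The msmo1 level was 5.0 in control 1, 5.96 in control 2, 5.71 in control 4 and 6.59 in control 8. With azacytidine it was 6.28, 7.56, 8.84 and 8.56 on arrays 1, 2, 5 and 6. In the mutants it was 5.31, 5.49 and 5.19 on arrays 3, 4 and 6. The mutant levels thus all lay inside the control range, 3 of 4 azacytidine arrays lay above every control, and azacytidine array 1 lay below control 8. The group mean was 5.82 ± 0.66 for controls (SD, n = 4). It was 7.81 ± 1.16 for azacytidine (SD, n = 4) and 5.33 ± 0.15 for mutants (SD, n = 3). The azacytidine mean was 1.99 ± 0.50 above that of controls on the log2 scale (± standard error of the fit over all 11 arrays), a 3.99-fold difference. The mutant mean differed from controls by -0.48 ± 0.54, which is within its standard error, and from azacytidine by -2.48 ± 0.54. The spread was uneven, with a range of 2.56 among azacytidine arrays, 1.59 among controls and 0.30 among mutants.

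The hmgcs1 level was 7.69 in control 1, 8.61 in control 2, 8.41 in control 4 and 7.72 in control 8. With azacytidine it was 8.56, 9.12, 9.83 and 9.71 on arrays 1, 2, 5 and 6. In the mutants it was 6.81, 6.80 and 5.77 on arrays 3, 4 and 6. Every mutant array lay below every control here, unlike msmo1, and azacytidine array 1 again lay within the control range while the other 3 lay above it. The group mean was 8.11 ± 0.47 for controls (SD, n = 4). It was 9.31 ± 0.59 for azacytidine (SD, n = 4) and 6.46 ± 0.60 for mutants (SD, n = 3). The differences were 1.20 ± 0.36 for azacytidine against control, a 2.29-fold difference, -1.65 ± 0.39 for mutants against control, a 3.13-fold difference, and -2.85 ± 0.39 for mutants against azacytidine. The first 2 comparisons share the same 4 control arrays.

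In both genes the group order was mutant, control, azacytidine. For msmo1 the lower neighbours in that order, mutant and control, overlapped throughout the mutant range, whereas for hmgcs1 they were separate. Control and azacytidine overlapped in both genes through azacytidine array 1. Without that array the azacytidine difference from controls was 2.51 for msmo1 and 1.45 for hmgcs1. Whether the mutant difference of hmgcs1 exceeded that of msmo1 was not tested.

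**Figure D1:**
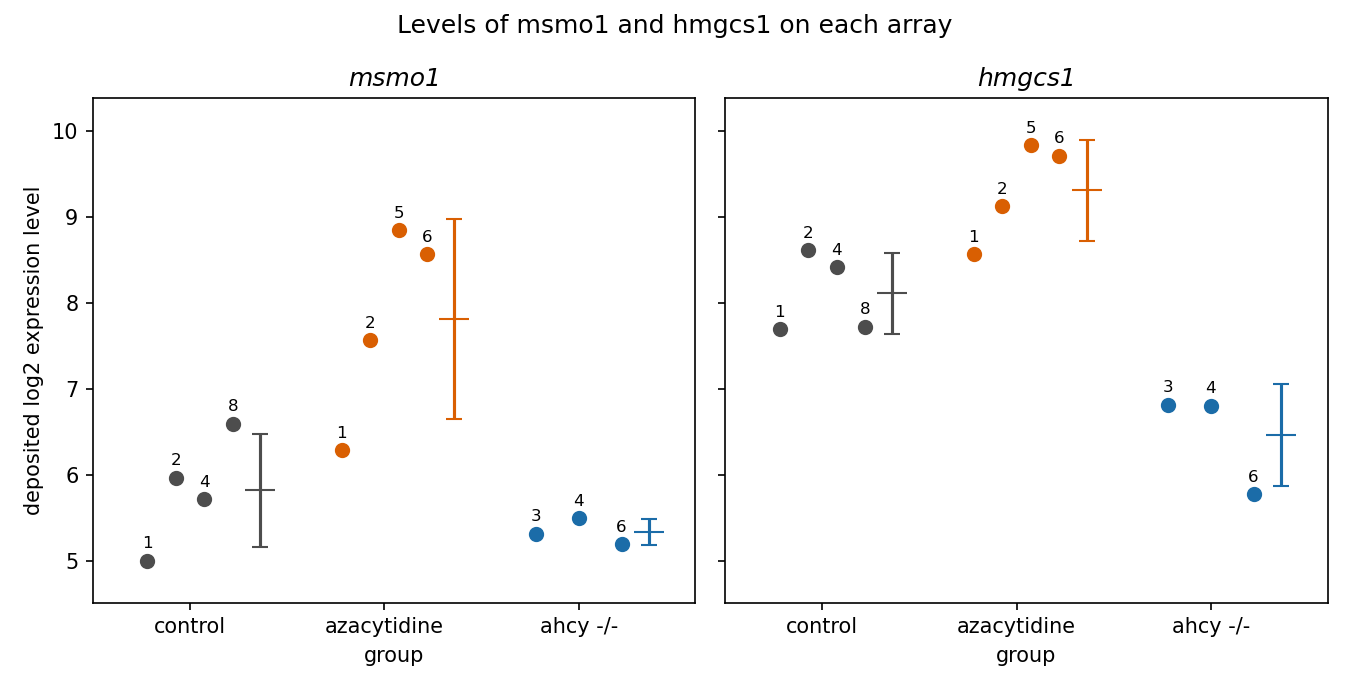
Log2 expression levels (vertical axis) of msmo1 (left) and hmgcs1 (right) in the control, azacytidine and ahcy -/- groups, 1 numbered point per array, with the group mean and SD as a bar beside the points. Azacytidine arrays 5 and 6 are the 2 highest in both panels, and the mutants lie inside the control range for msmo1 but below it for hmgcs1.

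Markers of some cell types, but not of all, differed between these groups. The mean level of the 19 hepatocyte markers ranged from 11.6 to 11.9 in controls, from 12.1 to 12.3 with azacytidine and from 9.95 to 10.8 in mutants, and it was lowest in mutant 6, which also had the lowest hmgcs1. Of these 19 genes, 10 fell in mutants against controls, where 12.1% of all probe sets were called, 5.87% lower and 6.23% higher. With azacytidine 1 of the 19 rose, where 0.579% of all probe sets were called, 0.399% higher and 0.18% lower. At an unadjusted p under 0.05, 7 of the 19 were higher and none lower, beside 5.23% and 9.93% of all probe sets. Of the 19 estimates for azacytidine, 18 were positive. The mean of 12 leukocyte markers ranged from 5.38 to 5.91 in controls, from 6.25 to 7.09 with azacytidine and from 5.99 to 6.84 in mutants. Within the azacytidine group it was lowest on array 1 (6.25) and highest on arrays 5 and 6 (7.01 and 7.09), and 1 or 2 of the 12 leukocyte markers lay at or below the 10th percentile on azacytidine arrays, against 1 to 3 on controls. Of the 12, 2 rose with azacytidine, and 3 rose and 1 fell in mutants against controls. Means of 15 skeletal muscle, 13 epidermis and 17 neural markers were lowest with azacytidine (8.14 to 8.91, 6.09 to 7.29 and 5.11 to 5.49) and ranged in mutants from 10.4 to 10.99, 9.02 to 9.87 and 6.90 to 7.68. In controls they ranged from 8.94 to 9.80, 7.46 to 8.01 and 5.63 to 8.45. The ranges of the other lists overlapped between all groups. Means of 6 biliary and endothelial markers ranged from 8.72 to 9.29 in controls, 8.54 to 9.10 with azacytidine and 8.82 to 9.1 in mutants. For 8 intestine markers these ranges were 6.39 to 8.66, 5.38 to 8.33 and 6.06 to 7.64. For 12 exocrine pancreas markers they were 5.55 to 10.5, 5.26 to 7.30 and 4.98 to 6.35. All 12 pancreas estimates against controls were negative, both for azacytidine and for mutants. At an unadjusted p under 0.05, 6 and 7 of the 12 were lower, beside 9.93% and 11.3% of all probe sets. In mutants 1 of the 12 was called lower, where 5.87% of all probe sets were. Fewer hepatocytes and less RNA per hepatocyte cannot be told apart in such samples, and the part of these markers in the levels of msmo1 and hmgcs1 was not tested.

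Within the azacytidine group, all 4 arrays stood on the same side of the group mean in both genes. Azacytidine array 1 lay below its group mean by 1.53 in msmo1 and 0.74 in hmgcs1 on the log2 scale, while array 5 lay above it by 1.03 and 0.53. Control 8 went the other way, 0.78 above the control mean in msmo1 and 0.39 below it in hmgcs1. Over the deviations of all 11 arrays from their group means, Pearson's r was 0.63 and Spearman's rho was 0.73, and without azacytidine arrays 1 and 5, the 2 farthest in msmo1, r was 0.31 and rho 0.37. Those 2 arrays were picked as the farthest in msmo1, so the lower values do not show that the relation rests on them. Without control 8 alone r was 0.84, and without azacytidine array 1 alone it was 0.38. These were the highest and lowest r when 1 array was left out, so neither shows how firm the relation is. The relation is given as a description, since the pair was chosen on these arrays.

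**Figure D2:**
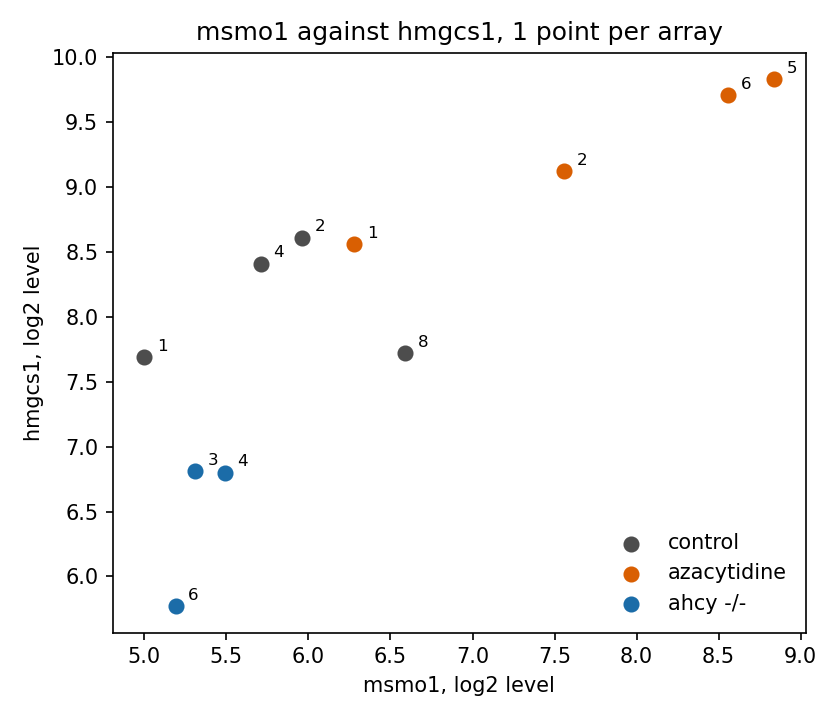
Log2 level of msmo1 (horizontal axis) against hmgcs1 (vertical axis), 1 numbered point per array, coloured by group. The azacytidine arrays run in 1 order, 1, 2, 6 and 5, in both genes, and control 8 combines the highest msmo1 with the second lowest hmgcs1 of its group.

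The rest of the pathway was read from a list of 24 sterol synthesis genes, of which 10 were measured, msmo1, hmgcs1 and 8 others. In azacytidine against control, none of the 8 was called by limma at an adjusted p under 0.05, where 0.579% of all 12784 probe sets were called, 0.399% higher and 0.18% lower. At an unadjusted p under 0.05, 4 of the 8 were higher and none lower, where 5.23% of probe sets were higher and 9.93% lower by this rule, and 7 of 8 estimates were positive. Their median difference was 0.68, beside -0.06 over all probe sets. The positive genes include cyp51, below the 10th percentile of all 11 arrays, and mvk, below it on control 1 and mutants 3 and 6. The negative gene, lbr, differed by 0.29 on its second probe set. In mutants against controls none of the 8 was called either, where 12.1% of probe sets were called, 6.23% higher and 5.87% lower. There 1 was higher and 2 lower at an unadjusted p under 0.05, near the 15.2% higher and 11.3% lower of all probe sets, and the median was -0.23, beside 0.08 over all probe sets. In mutants against azacytidine 3 of the 8 fell and 1 rose, where 29.4% of probe sets were called, 11.1% lower and 18.2% higher. That split was 1424 lower and 2329 higher, and with arrays centred on their medians it became 2068 and 1629. The median of the 8 was -1.07, beside 0.14 over all probe sets. That of the 19 hepatocyte markers was -1.04, with 17 of the 19 called lower. A median of 8 genes does not show that the list stands apart.

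At the entry of the pathway, acat2, whose thiolase makes the acetoacetyl-CoA that HMG-CoA synthase uses, was at 10.82, 10.94, 10.86 and 10.91 in controls 1, 2, 4 and 8. It was at 11.82, 11.34, 11.40 and 11.63 on azacytidine arrays 1, 2, 5 and 6 and at 11.69, 11.29 and 10.97 in mutants 3, 4 and 6. All azacytidine and mutant arrays thus lay above all controls, by 0.67 ± 0.17 with azacytidine (limma adjusted p = 0.095) and 0.43 ± 0.18 in mutants (limma adjusted p = 0.14). Its highest azacytidine array was array 1, the lowest of the group in msmo1 and hmgcs1.

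Of the mevalonate and isoprenoid steps, mvk (mevalonate kinase) was at 4.18, 5.14, 5.26 and 4.52 in controls, at 5.40, 5.03, 6.33 and 5.97 with azacytidine and at 4.29, 4.38 and 4.21 in mutants, in the same array order. It was dim, with control 1 and mutants 3 and 6 below the 10th percentile of their arrays. The azacytidine arrays all lay above the mutants, and mvk fell by 1.39 ± 0.33 in mutants against azacytidine (limma adjusted p = 0.009). With 2 of 3 mutant arrays that dim, the size of this fall is uncertain, and mvk was not tested when dim probe sets were left out. Against controls the differences were 0.91 ± 0.31 with azacytidine (limma adjusted p = 0.18) and -0.48 ± 0.33 in mutants (limma adjusted p = 0.39).

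The gene fdps encodes farnesyl diphosphate synthase, which joins isoprenoid units. Its brighter probe set was at 6.76, 6.57, 5.32 and 5.65 in controls, 6.01, 7.12, 8.57 and 8.23 with azacytidine and 5.76, 5.67 and 5.58 in mutants. It fell by 1.81 ± 0.55 in mutants against azacytidine (limma adjusted p = 0.027). This call was lost without mutant 3, 4 or 6 or azacytidine array 5 or 6, with values between -1.86 and -1.45, and when its 2 probe sets were averaged (-1.29). Its dimmer probe set differed by -0.77 ± 0.42 there (limma adjusted p = 0.2). The means of that probe set were 3.15 in controls, 3.48 with azacytidine and 2.71 in mutants. The mark of dim signal was 4.11 or higher on every array, so this difference and the average of the 2 probe sets rest on uncertain levels. Against controls the brighter one differed by 1.41 ± 0.51 with azacytidine (limma adjusted p = 0.21) and -0.41 ± 0.55 in mutants (limma adjusted p = 0.7).

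Squalene synthase, encoded by fdft1, commits isoprenoids to sterols. Its gene was at 5.09, 5.58, 5.52 and 5.26 in controls, 5.56, 5.78, 6.73 and 6.41 with azacytidine and 5.41, 5.50 and 5.19 in mutants. The mutants lay inside the control range, as for msmo1, with a difference of 0.00 ± 0.28 (limma adjusted p = 0.99). The differences were 0.76 ± 0.26 for azacytidine against control (limma adjusted p = 0.19) and -0.75 ± 0.28 for mutants against azacytidine (limma adjusted p = 0.06), a difference that was called without azacytidine array 1 (-0.94, limma adjusted p = 0.029), with centred arrays (-0.97, limma adjusted p = 0.02) and after cyclic loess (-0.95, limma adjusted p = 0.023).

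Past lanosterol, cyp51 (the demethylase just before the reductases) lay below the 10th percentile of all 11 arrays, so its levels of 1.14 to 3.29 carry only a bound, and its probe set name marks possible sharing of probes with other transcripts. Of the steps around msmo1, lbr, which encodes a sterol reductase that is also a receptor of the nuclear lamina, had a brighter probe set that differed the opposite way. It rose by 1.27 ± 0.36 in mutants against azacytidine (limma adjusted p = 0.019), a call lost without azacytidine array 1 (1.19) or mutant 4 (0.99). The second lbr probe set differed by 0.36 ± 0.26 there (limma adjusted p = 0.33), and for azacytidine against control by 0.29 ± 0.24 (limma adjusted p = 0.65), so the probe sets disagree in sign in that comparison. Against controls the brighter one differed by -0.60 ± 0.33 with azacytidine (limma adjusted p = 0.42) and 0.68 ± 0.36 in mutants (limma adjusted p = 0.25).

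The dehydrogenase encoded by nsdhl acts directly after the msmo1 product in the same removal of methyl groups. It was at 7.54, 8.31, 7.62 and 6.71 in controls, 8.59, 7.82, 8.6 and 7.83 with azacytidine and 6.32, 6.74 and 6.17 in mutants. It fell by 1.80 ± 0.37 in mutants against azacytidine (limma adjusted p = 0.0043), where the groups did not overlap. Mutants against controls gave -1.14 ± 0.37 (limma adjusted p = 0.068), and without control 8 this became a call (-1.41, limma adjusted p = 0.026). Azacytidine against control gave 0.67 ± 0.34 (limma adjusted p = 0.39). The arrays of azacytidine with the highest nsdhl were 5 and 1, so array 1 was not low here as it was in msmo1.

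The last measured step, dhcr7, whose reductase completes cholesterol, varied widely within groups, from 7.35 to 10.05 in controls, 8.09 to 9.84 with azacytidine and 6.64 to 8.09 in mutants. Its difference between mutants and azacytidine was -1.72 ± 0.61 (limma adjusted p = 0.052). It was called under 8 alternatives, among them the fits without control 1, control 4, azacytidine array 5 or mutant 3, with values from -2.18 to -1.72. Against controls it differed by 0.36 ± 0.57 with azacytidine (limma adjusted p = 0.84) and -1.36 ± 0.61 in mutants (limma adjusted p = 0.18).

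**Figure D3:**
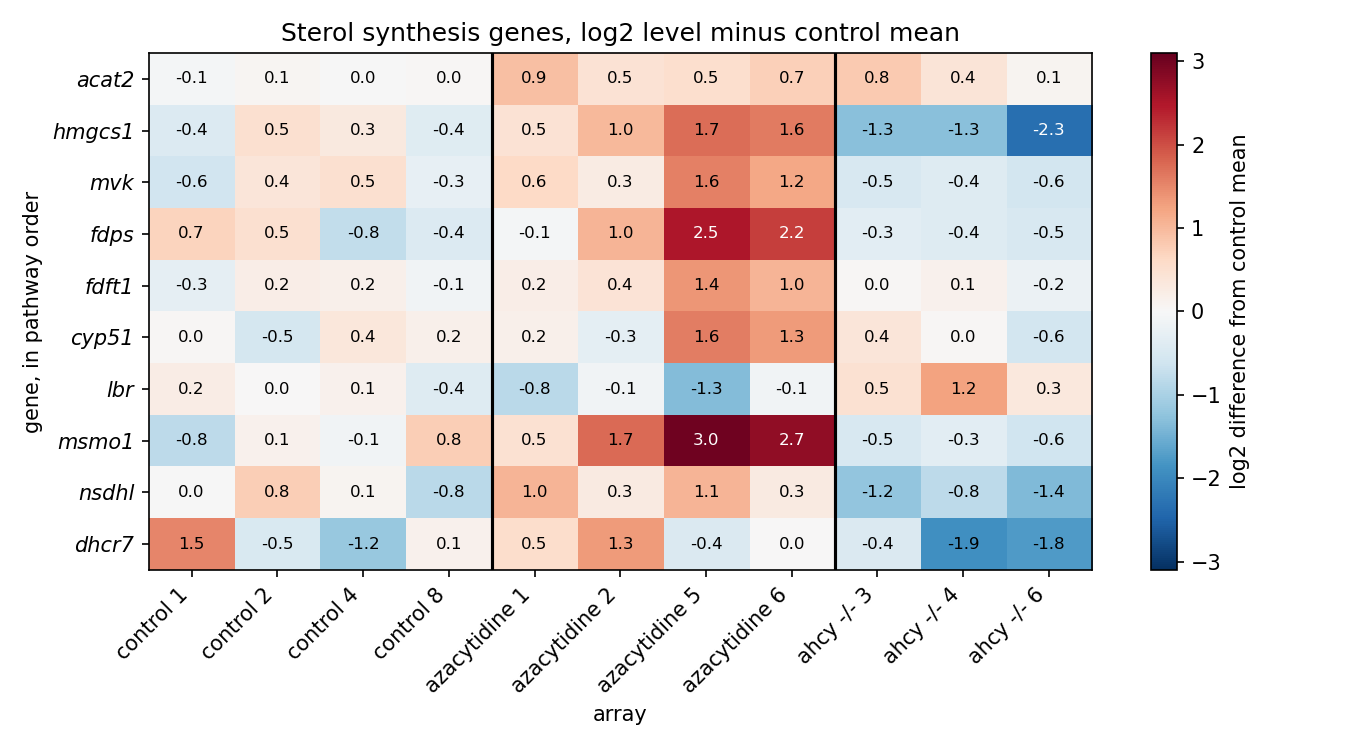
Log2 level of the 10 measured sterol synthesis genes (rows, in pathway order) on each array (columns) minus the mean of the 4 controls for that gene, with red above and blue below it. Azacytidine arrays 5 and 6 stand 1.60 or more above the control mean in hmgcs1, fdps and msmo1, while lbr and dhcr7 do not follow.

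The order of single arrays was alike in part of the pathway. Azacytidine arrays 5 and 6 were the 2 highest of all 11 arrays in msmo1 and hmgcs1 and in 4 of the 8 other genes (mvk, fdps, fdft1 and the dim cyp51), but not in acat2, lbr, nsdhl or dhcr7. The same held for 195 of 7792 named genes, or 2.5%. This order was noticed in the data and is given as a description. The labels name no batch. They do not say what the sample numbers stand for, and no control is numbered 5 or 6.

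**Figure D4:**
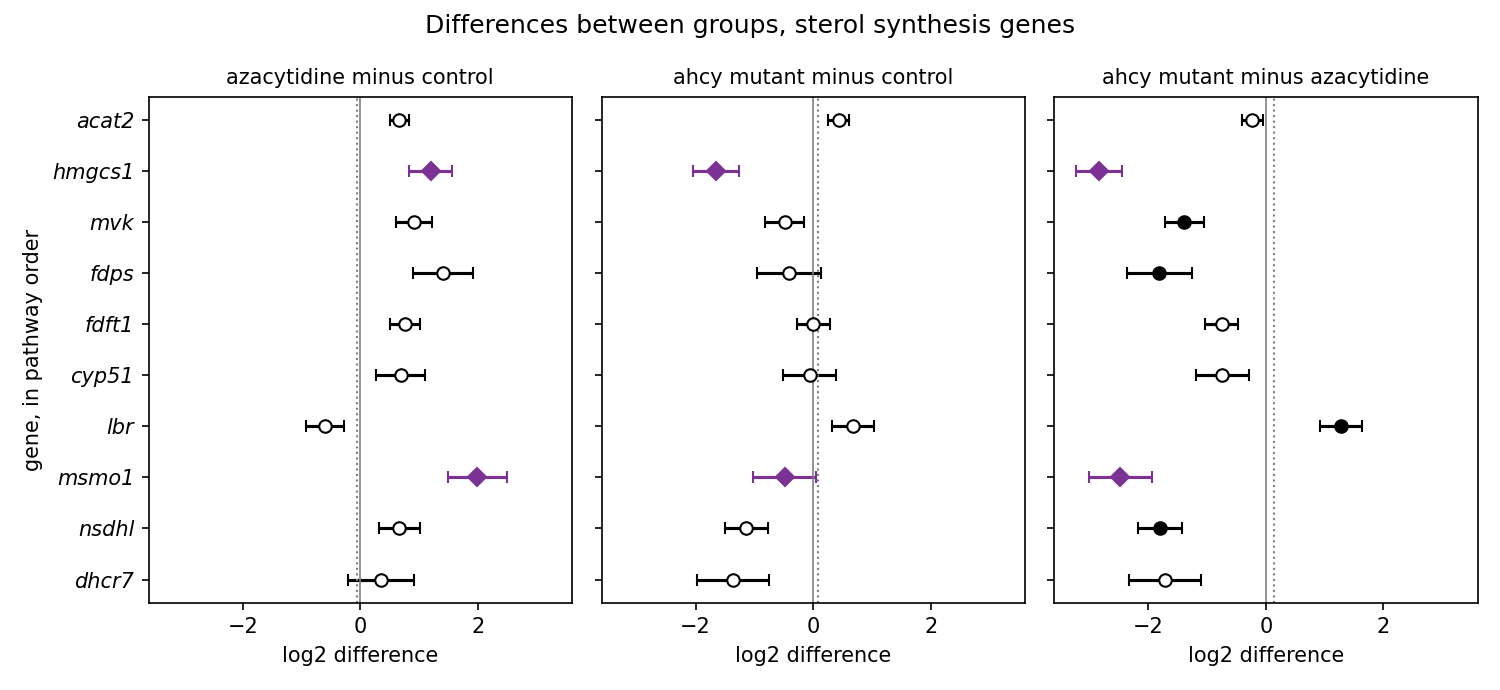
Log2 differences between groups (horizontal axis, with the standard error of the limma fit as bars) of the 10 measured sterol synthesis genes in the 3 comparisons. Diamonds are msmo1 and hmgcs1, filled circles are other genes called at an adjusted p under 0.05, open circles are genes not called, and the dotted line is the median of all probe sets; the filled circles are mvk, fdps, lbr and nsdhl, all in the right panel.

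Of the system that senses sterols, 5 of 12 listed genes were measured, and the SREBP genes themselves were not among them. With azacytidine none of the 5 was called by limma, where 0.579% of all probe sets were called. None passed an unadjusted p under 0.05 either, where 5.23% of probe sets were higher and 9.93% lower. At these shares, no call among 5 genes does not show that they were unchanged. The product of insig1 holds the SREBP complex in the endoplasmic reticulum, and the gene is itself raised by SREBP in mammals. It was at 8.50 ± 0.10 in controls (SD, n = 4). The highest control, control 1, was at 8.62 and the lowest array of the other groups, azacytidine array 5, at 8.63, so they were only just apart. The insig1 differences were 0.53 ± 0.28 with azacytidine (limma adjusted p = 0.41) and 0.68 ± 0.30 in mutants (limma adjusted p = 0.17). The gene aup1, whose product takes part in the degradation of HMG-CoA reductase, fell by 1.22 ± 0.24 in mutants against controls (limma adjusted p = 0.0065), from levels between 8.49 and 9.14 to levels between 7.41 and 7.63. The site-1 protease gene mbtps1, whose product cuts SREBPs, was called in mutants against azacytidine only, where it rose by 0.86 ± 0.22 (limma adjusted p = 0.012), a call lost without mutant 6 (0.76).

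Of 10 measured genes of sterol uptake and traffic, 1 rose with azacytidine, where 0.399% of all probe sets were called higher. This was stard3, which encodes a carrier of cholesterol at late endosomes. It was at 5.07, 4.78, 4.64 and 4.92 in controls 1, 2, 4 and 8, at 5.75, 5.82, 5.83 and 6.22 on azacytidine arrays 1, 2, 5 and 6 and at 4.95, 5.11 and 5.06 in mutants. All azacytidine arrays lay above all others, and the rise was 1.05 ± 0.17 (limma adjusted p = 0.019). The call was lost without control 4 (0.98) and without azacytidine arrays 2 (1.08) or 6 (0.95), as well as without controls 2 and 4 together (0.91).

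In mutants, 2 of these 10 genes rose and 1 fell, beside 6.23% of all probe sets called higher and 5.87% lower. The ubiquitin ligase gene mylipa, whose mammalian counterpart marks the LDL receptor for degradation, was at 6.62, 6.38, 6.41 and 5.77 in controls and 7.11, 8.19 and 8.02 in mutants, a rise of 1.48 ± 0.34 (limma adjusted p = 0.016). The call was lost without mutant 4 (1.27) or mutant 6 (1.36), and without controls 2 and 4 together (1.58). With azacytidine mylipa was at 5.95, 5.54, 4.94 and 4.99, a difference from controls of -0.94 ± 0.31 (limma adjusted p = 0.18), lowest on arrays 5 and 6, the 2 arrays highest in msmo1. The rise in mutants against azacytidine was 2.42 ± 0.34 (limma adjusted p = 0.00053).

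The other calls in mutants were in cav1 and scp2a. The caveolin gene cav1 rose by 1.29 ± 0.27 (limma adjusted p = 0.011), a call lost without mutant 4 (1.07) and when its probe sets were averaged (1.03). The sterol carrier gene scp2a, which also serves peroxisomes, fell by 1.47 ± 0.27 (limma adjusted p = 0.0048). Its lowest array was mutant 6 at 10.2, against 11.8 and 11.3 in mutants 3 and 4.

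Of 14 listed genes of sterol efflux and storage, only 2 were measured. Both fell in mutants against controls, where 5.87% of all probe sets were called lower. The oxysterol receptor gene nr1h3 fell by 1.70 ± 0.26 (limma adjusted p = 0.002), from levels between 7.54 and 8.13 in controls to levels between 5.90 and 6.46, and with azacytidine it differed by -0.07 ± 0.24 (limma adjusted p = 0.94). The sterol 27-hydroxylase gene cyp27a1.1 fell by 1.28 ± 0.32 (limma adjusted p = 0.024). Its levels were 5.03 to 6.57 in controls and 4.2, 4.39 and 5.1 in mutants 3, 4 and 6, so the groups overlapped. Mutant 3 lay below the mark of dim signal of its array (4.51), and mutant 4 lay just above its own (4.37). The size of this fall is therefore uncertain. Its call was lost without control 1 (-1.04), control 2 (-1.27), mutant 3 (-1.10) or mutant 4 (-1.20), or when only the 2 groups compared were fitted. These falls stand beside the lower hepatocyte markers of the mutants given above, whose part was not tested.

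**Figure D5:**
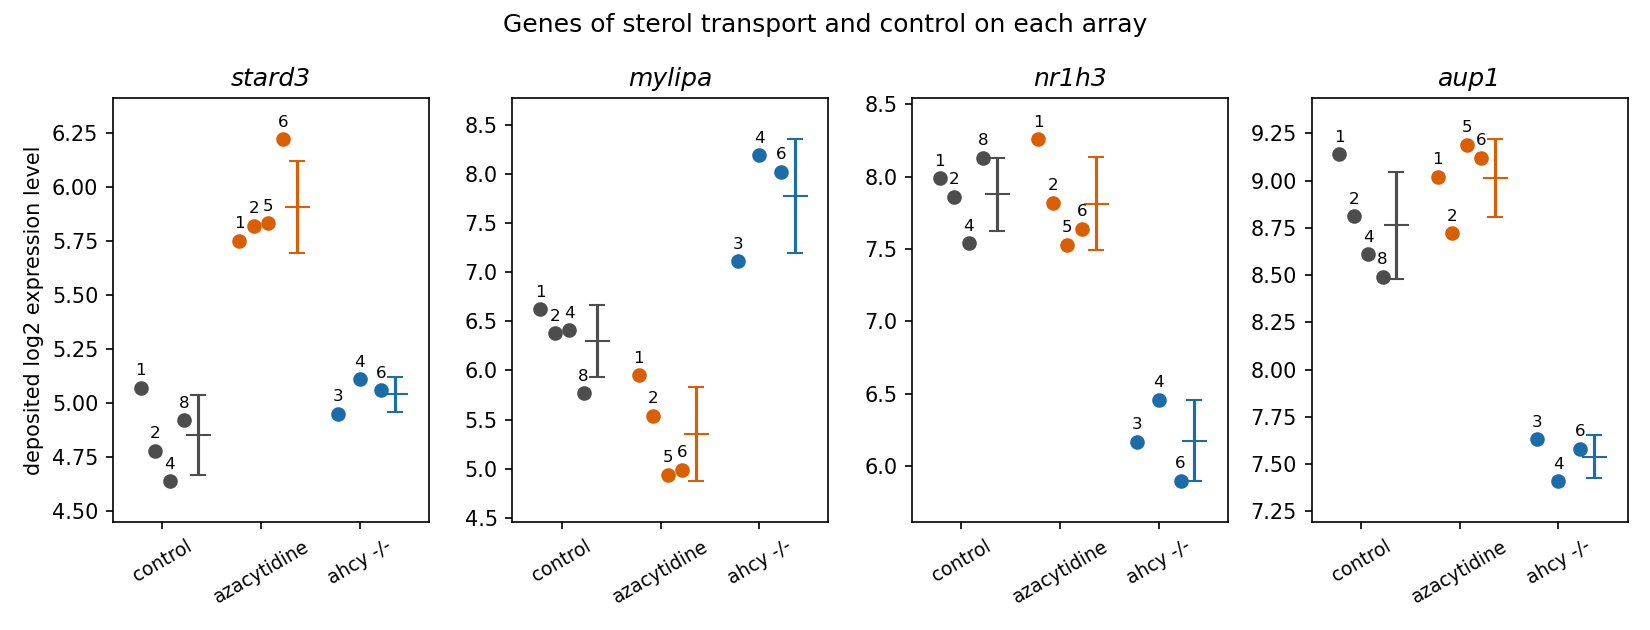
Log2 levels (vertical axis, not starting at 0) of stard3, mylipa, nr1h3 and aup1 in the 3 groups, 1 numbered point per array, with the group mean and SD as a bar. The stard3 points of azacytidine lie above all others, mylipa runs from lowest with azacytidine to highest in mutants, and nr1h3 and aup1 are lowest in the mutants.

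Genes with the pattern most like that of msmo1 over the 11 arrays were, by Pearson's r across 7791 other named genes, tapbp.1 (0.95), psme2 (0.95), ifi44a6 (0.93), irf1b (0.93) and apoc4 (0.92). Of these, ifi44a6 was dim, with means of 1.585 in controls and 1.91 in mutants. The mark of dim signal was 4.11 or higher on every array, so the likeness of ifi44a6 to msmo1 rests on uncertain levels. Here tapbp.1 encodes a tapasin, of peptide loading onto MHC class I, irf1b an interferon regulatory factor and apoc4 an apolipoprotein. Their means with azacytidine stood 2.87 ± 0.47, 4.22 ± 0.75 and 1.76 ± 0.31 above those of controls. Since these genes were picked for a pattern like that of msmo1 on the same arrays, such a difference was built into the choice and has no test. Among sterol genes fdft1 came closest to msmo1, 9th of 7791 (r = 0.92), ahead of mvk (0.86), fdps (0.84) and hmgcs1 (0.83, 51st). The dim cyp51 (0.71), nsdhl (0.56), acat2 (0.41) and dhcr7 (0.24) came after them, and lbr had r = -0.66. Those r values follow the shifts between groups as well as the arrays within them.

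For hmgcs1 the most similar genes were atp5md (0.97), spcs3 (0.96), ccl19a.1 (0.95), dnajb11 (0.94) and bop1 (0.94). Here spcs3 is a subunit of the signal peptidase and dnajb11 a chaperone of the endoplasmic reticulum. In mutants the means of ccl19a.1 (a chemokine gene), dnajb11 and atp5md differed from those of controls by -3.33 ± 0.56, -1.18 ± 0.28 and -0.53 ± 0.14, again as a description of genes picked for their likeness. Those of spcs3 and bop1 differed by -0.345 ± 0.13 and -0.90 ± 0.36. Among sterol genes mvk had r = 0.89 (69th of 7791), nsdhl 0.86 (142nd), msmo1 0.83 (239th), fdft1 0.79 (422nd) and fdps 0.77 (492nd). The others were the dim cyp51 (0.60), dhcr7 (0.47), acat2 (0.28) and lbr (-0.68).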

How the data were processed

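RNA from dissected larval livers was amplified in 2 rounds and read on Affymetrix zebrafish arrays, 1 array per sample. The deposited log2 levels, 1 per probe set and array, were made by the authors. GCRMA and Partek are the tools named, without versions, per the submitters' processing notes. Since GCRMA models and removes background, dim levels are uncertain. Of 12830 probe sets, 46 array controls were left out, and 12784 were tested. Names came from the platform annotation, updated through RefSeq gene IDs: 8994 probe sets had 1 symbol, 110 several and 3680 none, and the last 2 kinds were not named. The probe set with the highest mean stood for its gene. The number of arrays limits the precision.

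All 11 arrays entered 1 limma model (3.58.1, R 4.3.3) of 3 group means with 8 residual degrees of freedom and a trended variance prior. Tests were two-sided, with Benjamini-Hochberg adjustment over all probe sets. The fit was checked on simulated data. The members and the 15 gene lists were chosen with earlier results of these data known. Named genes were both members, all measured sterol synthesis genes, up to 4 called genes of each other metabolic list by smallest p, and the 5 genes most like each member, from which the text selects. Alternatives were the variance prior, scaling, a filter on dim probe sets, fits of only 2 groups, the sample number as a block, averaged probe sets and single arrays left out. Leaving out controls 2 and 4 together was chosen after seeing the data.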

Additional observations from a re-analysis of the deposited data

Results flagged for a closer look

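Among 36 sets of 4 arrays examined (10 sterol synthesis genes and 8 marker lists in controls and with azacytidine), 1 array stood far from the others of its group. The mean of the skeletal muscle markers was 8.14 on azacytidine array 5, against 8.81 to 8.91 on the other 3, and this gap took up most of the range of the group. Chance alone flags about 1 in 20 such groups. No array stood apart in this way in msmo1 or hmgcs1.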

How the results depend on the processing

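The differences of msmo1 and hmgcs1 kept their direction under every alternative run. Over fits without 1 array, msmo1 differed by 1.65 to 2.51 for azacytidine against control, by -0.76 to -0.23 for mutants against control and by -2.99 to -2.14 for mutants against azacytidine. For hmgcs1 these ranges were 1.02 to 1.45, -1.82 to -1.30 and -3.09 to -2.50. The within-group correlation of the pair ranged from 0.38 to 0.84 without 1 array and was 0.72 without controls 2 and 4.

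Counts moved more. Against 74 probe sets called for azacytidine, there were 32 to 153 without 1 array, 124 with centred arrays, 120 after cyclic loess and 37 without controls 2 and 4. Against 1547 in mutants there were 756 to 1688 without 1 array and 777 without controls 2 and 4, and against 3753 for mutants against azacytidine 2320 to 3919 without 1 array. Centring moved the median of all probe sets from -0.06 to 0.05, from 0.08 to -0.03 and from 0.14 to -0.08 in the 3 comparisons, and turned the split in mutants against controls from 797 higher and 750 lower to 618 and 890. Of the 8 other sterol genes, 0 were called for azacytidine under all alternatives, 0 or 1 in mutants without 1 array, and 2 to 5 for mutants against azacytidine without 1 array, from 4, with 6 after centring and 5 after cyclic loess. The causes were not tested.

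The groups share few sample numbers. Same-numbered samples did not deviate together (correlations of -0.21 to 0.03 over 4 pairs), so a number was not taken as a pairing. With the number as a fixed replicate block, which left 2 residual degrees of freedom, limma called 0, 9 and 219 probe sets in the 3 comparisons (606 higher and 589 lower at an unadjusted p under 0.05 for azacytidine) and 0 of the 8 sterol genes in mutants against azacytidine, 3 at an unadjusted p under 0.05. Of 54 calls among genes the naming rule gives, 3 held in that fit. The block moved the mutant difference of hmgcs1 to -2.27. With a random block the counts stayed within 1.5 times. Without detection calls, levels near the 10th percentile (among them mvk and cyp51) are not reliable.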

Other observations

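Beside sterols, HMG-CoA and acetyl-CoA feed ketone bodies, isoprenoids and fatty acids. With azacytidine none of 11 measured isoprenoid branch genes, 4 ketone genes or 9 fatty acid synthesis genes was called by limma. There 0.579% of all probe sets were called. At an unadjusted p under 0.05 only 1 ketone gene passed, and it was lower, where 5.23% of probe sets were higher and 9.93% lower. This gene, oxct1a, lay below the 10th percentile on all 4 azacytidine arrays and on 2 of the 4 controls, so its levels are not reliable. Counts this small do not show that these genes were unchanged. In mutants against controls, 2 of the 4 ketone genes fell, beside 5.87% of all probe sets called lower. The gene bdh2 fell by 1.69 ± 0.31 (limma adjusted p = 0.0048) and the mitochondrial thiolase gene acat1 by 1.00 ± 0.20 (limma adjusted p = 0.0077). The acat1 call was lost without controls 2 and 4 together (-0.96). Among the fatty acid genes me1 fell by 4.55 ± 0.37 (limma adjusted p = 3.2e-05) and mid1ip1a, a regulator of acetyl-CoA carboxylase, rose by 2.89 ± 0.53 (limma adjusted p = 0.005), while acaca, the carboxylase gene itself, was not called.

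None of the 11 isoprenoid branch genes was called in mutants against controls by limma, where 12.1% of all probe sets were called. At an unadjusted p under 0.05, 4 were lower, beside 11.3% of all probe sets. The same 4 genes fell in mutants against azacytidine, where 11.1% of all probe sets were called lower: pdss1 and coq2 of ubiquinone synthesis by 1.22 ± 0.35 and 1.00 ± 0.33, dhdds of dolichol synthesis by 0.99 ± 0.32 and rabggtb of Rab prenylation by 0.83 ± 0.26. Each of these calls was lost without mutant 3 or 6, azacytidine array 1 or 5, or, for some, other arrays, with values from -1.22 to -0.68, and that of pdss1 also with averaged probe sets (-0.73).

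When group means were removed, other genes came closest to the pair. For msmo1 these were vipb (r = 0.94), zgc:64051 (0.93), mapk12a (0.91), vma12 (0.90) and bmp6 (0.90), and for hmgcs1 mpx (0.91), mapk14a (0.89), atp5mj (0.89), si:ch211-207i20.2 (0.88) and ginm1 (0.87), over 11 arrays and 7791 genes. The neutrophil gene mpx is also on the leukocyte list, and it fell by 3.29 ± 0.55 in mutants against controls (limma adjusted p = 0.0031). It was the 1 negative estimate among the 12 measured genes of that list there, and the other 11 were positive. With group means removed, fdft1 stood 6th for hmgcs1 (0.87) and 29th for msmo1 (0.82). The pair's own r of 0.63 put hmgcs1 303rd for msmo1 and msmo1 155th for hmgcs1. The sterol genes mvk, fdps and the dim cyp51 had r of 0.56 to 0.74 with either member. With msmo1, acat2 (-0.22), lbr (-0.16), nsdhl (-0.25) and dhcr7 (-0.45) went the other way. With hmgcs1 these were at 0.19, 0.18, 0.37 and -0.43. The means of si:ch211-207i20.2 were 3.52 in controls, 3.745 with azacytidine and 3.65 in mutants. The mark of dim signal was 4.11 or higher on every array, so the r of si:ch211-207i20.2 rests on uncertain levels.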
